A study of Mus musculus with 8 samples.

Results

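The liver-enriched transcription factors are DNA-binding proteins that hepatocytes hold at higher levels than most tissues. They were measured here as 9 genes chosen by name, namely Hnf4a, Foxa1, Foxa2, Foxa3, Cebpa, Cebpb, Onecut1, Prox1 and Nr5a2. These are 9 of the 35975 genes matched, and 26 of the 119414 transcripts listed. Liver RNA came from C57BL/6 mice in which a pump with a catheter in the portal vein delivered Normal Saline (NS, n = 4) or 4-HPAA in saline (n = 4) for 2 weeks. 4-HPAA is 4-hydroxyphenylacetic acid, a phenolic acid that gut microbes make. The study's methods give mice bought at 8 to 10 weeks of age, single housing after surgery, and 55 mM 4-HPAA in the pump. All 8 mice carried the portal cannula, and libraries are named NS1 to NS4 and HP1 to HP4. The labels give no sex for each mouse, and Ddx3y, a Y-linked gene, lay between 72.1 and 89.5 CPM in all 8 libraries.

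HNF4A is an orphan nuclear receptor that binds DNA as a homodimer and holds up much of the hepatocyte program. FOXA proteins are pioneer factors that can bind DNA in compact chromatin, C/EBP proteins are basic leucine zipper factors, and ONECUT1 (HNF6) binds through a cut domain and a homeodomain. PROX1 is a homeodomain protein that can act as a corepressor of HNF4A and NR5A2, and NR5A2 (LRH-1) is a nuclear receptor of bile acid and cholesterol genes. The genes are known to bind each other's promoters and enhancers, which makes them a cross-regulating network in liver.

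The promoters of the factors are shown first, because this cross-regulation is read from short motifs near their starts. The RefSeq promoter table (GRCm38.p6) held 14 windows for the 9 genes, and all 9 were matched. The 250 bases before each start were searched on both strands for ATTGAT (ONECUT), TGTTTAC (FOXA), TTGCNNAA (C/EBP), CAAAGTCCA (HNF4) and CAAGGTCA (NR5A2). None of these spellings lies within another. Capitals mark the matches in the windows below, which read 5′ to 3′ on the gene's strand and stop where an annotated UTR begins. Hnf4a has an upstream start (P2, chr2:163506607-163506807, plus strand) and a downstream start (P1, chr2:163546905-163547154, plus strand). The Foxa1 window is chr12:57546122-57546361 on the minus strand, that of Foxa2 before its outermost start is chr2:148046970-148047219 on the minus strand, and that of Onecut1 is chr9:74861671-74861920 on the plus strand.
Hnf4a, upstream start: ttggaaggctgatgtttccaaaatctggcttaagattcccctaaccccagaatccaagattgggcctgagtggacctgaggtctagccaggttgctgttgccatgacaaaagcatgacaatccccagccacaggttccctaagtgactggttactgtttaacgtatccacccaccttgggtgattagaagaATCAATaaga
Foxa1: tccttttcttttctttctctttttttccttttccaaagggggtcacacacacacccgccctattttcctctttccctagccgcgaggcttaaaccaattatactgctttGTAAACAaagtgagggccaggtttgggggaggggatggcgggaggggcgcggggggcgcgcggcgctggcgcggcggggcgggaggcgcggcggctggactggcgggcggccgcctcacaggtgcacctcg
Foxa2: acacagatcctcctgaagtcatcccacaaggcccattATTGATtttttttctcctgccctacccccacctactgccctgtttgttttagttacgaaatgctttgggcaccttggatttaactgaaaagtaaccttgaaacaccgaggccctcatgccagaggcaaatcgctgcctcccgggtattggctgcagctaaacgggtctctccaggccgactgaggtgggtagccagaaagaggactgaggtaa
Onecut1: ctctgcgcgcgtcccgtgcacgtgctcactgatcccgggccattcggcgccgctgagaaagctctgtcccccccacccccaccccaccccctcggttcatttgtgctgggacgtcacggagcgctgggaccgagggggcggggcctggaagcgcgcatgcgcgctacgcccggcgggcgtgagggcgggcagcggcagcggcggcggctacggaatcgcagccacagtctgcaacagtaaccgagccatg

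Distances here count from the RefSeq starts, which for the upstream start of Hnf4a and for Foxa1 lie past the end of the printed bases. The window before the upstream start of Hnf4a held the ONECUT letters 59 to 54 bases before the start. The window before the downstream start, not printed, held none of the 5 spellings and overlaps an exon of the noncoding Hnf4a-203. The Foxa1 window held the FOXA letters, 141 to 135 bases before the start, and the Foxa2 window held the ONECUT letters 213 to 208 bases before it. The Onecut1 window held none of them either. Over all 14 windows ONECUT matched 2, FOXA 1, C/EBP 1, and HNF4 and NR5A2 0. Of the 32851 windows in the table, 6.72% held the ONECUT letters, 3.17% FOXA, 9.56% C/EBP, 0.384% HNF4 and 1.33% NR5A2. A match describes letters, not a bound site.

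Libraries held between 29559978 and 30673398 estimated counts, of which the 9 factors took 0.112% to 0.149%. Hepatocyte markers were high throughout, with Alb (albumin) at 73130 to 100791 CPM. Of 12 pancreas markers, 9 were at or under 3 counts in every library, as were 3 of 6 intestine markers. Cela1 of the pancreas list ran from 7.83 to 14.2 CPM, and the intestine list summed to 63.8 to 93.3 CPM. NS2 stood apart in red blood cell markers, with a summed level of 2560 CPM against 247 to 376 in NS1, NS3 and NS4 and 152 to 734 with 4-HPAA. CPM here are counts scaled to a common library size after TMM scaling, a correction for library composition. In bulk tissue, fewer cells of a type and less RNA per cell cannot be told apart.

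Per length of transcript (TPM, mean ± SD over the 8 libraries), the factors spanned a wide range. Hnf4a was highest at 234 ± 22.9 TPM, followed by Cebpa at 170 ± 19.98 and Cebpb at 71.5 ± 11.3. Foxa3 stood at 43.8 ± 7.30, Prox1 at 33.7 ± 7.40, Onecut1 at 30.8 ± 24.9, Nr5a2 at 19.7 ± 2.92, Foxa2 at 16.1 ± 6.26 and Foxa1 at 7.51 ± 1.96 TPM. The ranges of Cebpa and Cebpb, and of Cebpb and Foxa3, did not overlap. All other neighbours in this order overlapped in range, although Hnf4a exceeded Cebpa in 8 of 8 libraries and Foxa2 exceeded Foxa1 in 8 of 8. Prox1 exceeded Onecut1 in 5 of 8 libraries and Onecut1 exceeded Nr5a2 in 4 of 8, so these levels were not ordered.

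4-HPAA was compared with Normal Saline to ask whether the compound shifted the factors. None of the 9 passed the threshold of an adjusted p of 0.05. Over all genes tested by edgeR's quasi-likelihood test, 0 of 12883 passed (0%) and 225 had an unadjusted p under 0.05 (1.75%), while DESeq2 passed 2 genes and limma-voom 0. None of those 2 was a factor. Of the factors, 1 had an unadjusted p under 0.05, and in 0 of 9 were the groups free of overlap, against 1.2% of all genes. With 4-HPAA 5 were higher and 4 lower, with a median log2 fold change of 0.026, and of 0.00071 over all genes. Median absolute log2 fold changes were 0.15 for the factors and 0.070 for all genes, and 7 of the 9 had a larger SD within groups than the median tested gene (0.18 on the log2 scale).

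**Figure D1:**
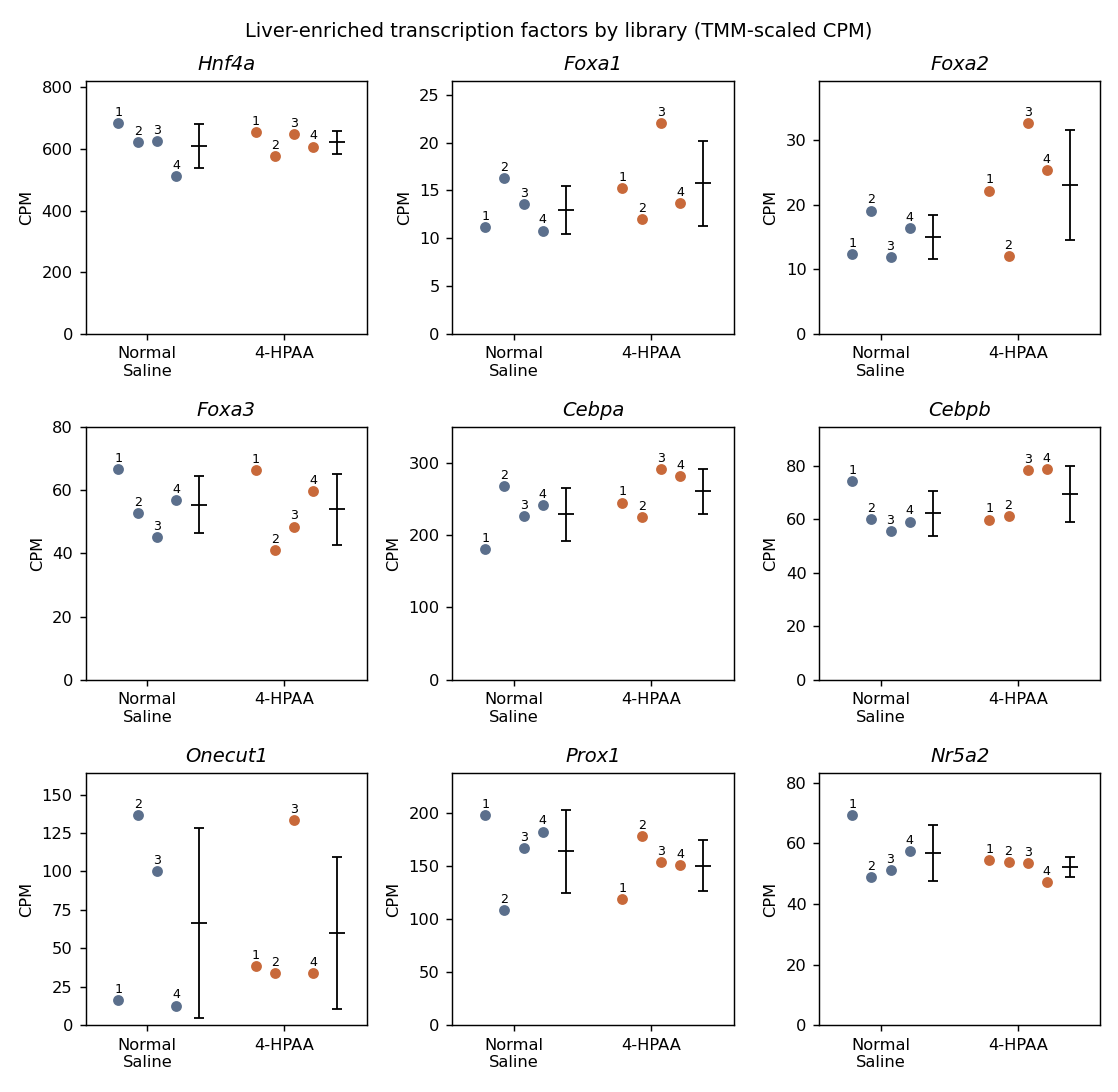
Normalized CPM (vertical axes, from 0) of the 9 factors in each library, with the replicate number beside each point and the group mean ± SD (n = 4) as black bars. The groups overlap in every panel, and Onecut1 runs from 12.9 to 137 CPM within the Normal Saline group.

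Hnf4a (ENSMUSG00000017950, chr2:163506808-163572910, plus strand, GRCm38) was the steadiest of the factors. With Normal Saline it measured 684, 623, 625 and 512 CPM, and with 4-HPAA 655, 577, 649 and 608 CPM. The 4-HPAA mice fell within the range of the controls. Its log2 fold change was 0.026 ± 0.10 (SE, edgeR's quasi-likelihood test, adjusted p = 1.00). The control mean was 611 ± 71.7 CPM and that of the 4-HPAA mice 622 ± 37.0 CPM (SD, n = 4 each).

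The 2 starts of Hnf4a were used very unequally. Hnf4a-205, the transcript of the upstream start, held 7.65 to 15.9 estimated counts a library, or 0.0383% to 0.0917% of the gene's counts and 0.382% to 0.908% per length. Its share averaged 0.0577% ± 0.0151 in control mice and 0.0657% ± 0.0218 in 4-HPAA mice (SD, n = 4 each, exact permutation test, two-sided, p = 0.543). The downstream start transcripts Hnf4a-201 and Hnf4a-202 held nearly all the rest. Hnf4a-201 has 0 and Hnf4a-202 has 6 stretches of 31 bases found in no other transcript, the length kallisto matches by default. The split between these transcripts therefore rests on few reads. Hnf4a-201 was estimated at 63.4% ± 8.07 and 68.8% ± 4.73 of the gene's counts, and Hnf4a-204, which starts inside the gene, at 0.103% ± 0.0468 and 0.140% ± 0.0668 (SD, n = 4 each).

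Of the FOXA genes, Foxa2 had the largest difference and Foxa3 the smallest. Foxa1 (ENSMUSG00000035451, chr12:57540628-57546916, minus strand) measured 11.1, 16.3, 13.6 and 10.8 CPM in control mice, and in 4-HPAA mice 15.2, 11.97, 22.03 and 13.7 CPM. HP3 was the highest library and the other 4-HPAA mice lay within the controls. This gave a log2 fold change of 0.28 ± 0.20 (SE, edgeR, adjusted p = 1.00), and of 0.073 without HP3.

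Foxa2 (ENSMUSG00000037025, chr2:148042877-148046969, minus strand) measured 12.4, 19.1, 11.9 and 16.4 CPM in NS mice and 22.2, 12.004, 32.6 and 25.4 CPM in 4-HPAA mice. In 3 of 4 4-HPAA mice it was above every control, while HP2 lay at the level of the lowest. The fitted log2 fold change was 0.63 ± 0.27 (SE, edgeR's quasi-likelihood test, adjusted p = 1.00), a ratio of means of 1.54. It was the factor with p under 0.05. Without HP3 the log2 fold change was 0.41, and without HP2 it was 0.84.

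Foxa3 (ENSMUSG00000040891, chr7:19013284-19023538, minus strand), the most abundant FOXA gene per length, measured 66.8, 52.7, 45.3 and 56.9 CPM with Normal Saline. With 4-HPAA it measured 66.4, 41.1, 48.5 and 59.7 CPM, a nearly identical span. Its log2 fold change was -0.039 ± 0.16 (SE, edgeR, adjusted p = 1.00).

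The 2 C/EBP genes were both slightly higher with 4-HPAA, within the spread of the mice. Cebpa (ENSMUSG00000034957, chr7:35119293-35121928, plus strand) measured 181, 268, 226 and 242 CPM in control mice, and in 4-HPAA mice 245, 225, 292 and 281 CPM. HP3 and HP4 were above every control. Its log2 fold change was 0.19 ± 0.13 (SE, edgeR, adjusted p = 1.00), and 0.089 without NS1.

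Cebpb (ENSMUSG00000056501, chr2:167688915-167690418, plus strand), which is also induced in acute phase responses, measured 74.3, 59.9, 55.4 and 59.0 CPM with Normal Saline. With 4-HPAA it measured 59.8, 61.0, 78.4 and 78.7 CPM, with HP3 and HP4 above every control. This gave a log2 fold change of 0.16 ± 0.13 (SE, edgeR, adjusted p = 1.00), which was 0.097 without HP3, 0.089 without HP4 and 0.26 without NS1. Of its 31-base stretches 19.6% occur in other genes, mostly in Tmem189, which lies on the opposite strand and measured 11.2 to 18.4 CPM. The methods name standard kallisto settings, which do not use strand, so reads of that part cannot be told apart between the genes.

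Onecut1 (ENSMUSG00000043013, chr9:74861921-74891781, plus strand) was the most variable factor, and its variation lay within groups. With Normal Saline it measured 16.3, 137, 100 and 12.9 CPM, and with 4-HPAA 38.6, 33.9, 134 and 34.1 CPM. NS2, NS3 and HP3 were high and the other 5 libraries low, with a highest over lowest ratio of 10.6. Control mice averaged 66.5 ± 61.8 CPM and 4-HPAA mice 60.1 ± 49.1 CPM (SD, n = 4 each). The fitted log2 fold change was -0.15 ± 0.75 (SE, edgeR, adjusted p = 1.00), and its sign turned with the library left out, from -0.90 without HP3 to 0.49 without NS2. The SD within groups was 1.41 on the log2 scale, exceeded by 0.147% of tested genes and by 1 of the 1000 genes nearest in level.

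Both transcripts carried it, Onecut1-201 with 332.6 to 3822 and Onecut1-202 with 18.1 to 307 estimated counts a library. Summed hepatocyte markers ran from 120864 to 153262 CPM, lowest in HP3 and highest in NS4. Summed cholangiocyte markers ran from 58.3 to 86.7 CPM, lowest in HP3, and leukocyte markers from 64.6 to 178.5 CPM, highest in NS2. Their part in the spread of Onecut1 was not tested. Onecut2, a paralog, measured 84.7, 90.1, 126 and 77.1 CPM in NS mice and 61.6, 102, 133 and 67.8 CPM in 4-HPAA mice. Of the 31-base stretches of Onecut1 53.0% occur in other annotated genes, chiefly the overlapping same-strand Gm20649, not used here. If the transcripts kallisto matched included that gene, reads of the shared part cannot be told apart.

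Prox1 (ENSMUSG00000010175, chr1:190118035-190170714, minus strand) was lower with 4-HPAA by less than its standard error. It measured 199, 109, 167 and 183 CPM in control mice, and in 4-HPAA mice 119, 179, 154 and 152 CPM. NS2 was lowest, next to HP1, and the groups overlapped throughout. Its log2 fold change was -0.12 ± 0.18 (SE, edgeR, adjusted p = 1.00), with -0.020 without NS1, -0.026 without HP1 and -0.28 without NS2. Prox1-202, the longest transcript, held 97.8% ± 0.889 and 97.6% ± 1.07 of the gene's counts (SD, n = 4 each), Prox1-201 42.5 to 147 and Prox1-203 15.2 to 55.4 counts a library.

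Nr5a2 (ENSMUSG00000026398, chr1:136842571-136960448, minus strand) measured 69.4, 48.9, 51.1 and 57.4 CPM in NS mice and 54.4, 53.7, 53.4 and 47.1 CPM in 4-HPAA mice. NS1 was highest and HP4 lowest, and 3 of the 4-HPAA mice lay close together. This gave a log2 fold change of -0.12 ± 0.11 (SE, edgeR, adjusted p = 1.00), and of -0.0090 without NS1. Its main transcript, Nr5a2-201, held 91.8% ± 1.45 and 90.0% ± 2.54 of its counts and Nr5a2-202 7.52% ± 1.31 and 9.26% ± 2.15 (SD, n = 4 each). A pair of minor transcripts fell below the filter on low counts. Nr5a2-203 was at 0 in all 4 Normal Saline libraries and at 6.81, 8.65, 8.61 and 3.72 counts with 4-HPAA, while Nr5a2-206 was at 2.42, 3.28, 5.97 and 1.87 counts with Normal Saline and 0 in all 4 with 4-HPAA. How common such a pattern is among other transcripts below the filter was not counted. Nr5a2-203 and Nr5a2-206 were singled out after their values were seen. They have 29 and 26 stretches of 31 bases of their own, and against a gene total of over 1000 counts these values rest on a handful of reads.

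**Figure D2:**
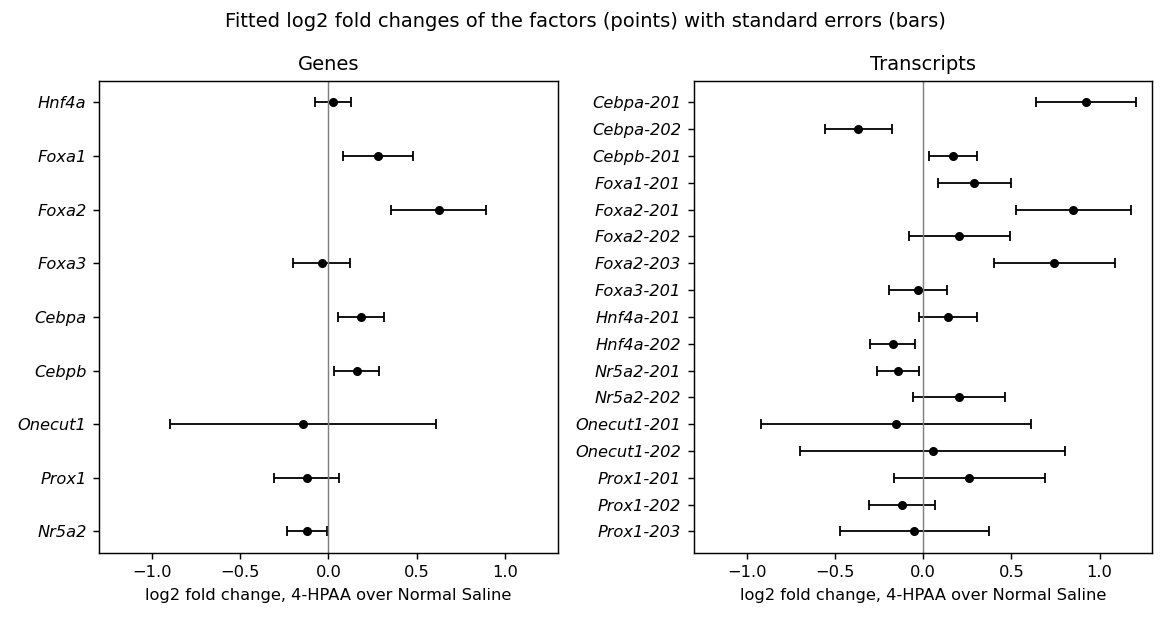
Fitted log2 fold changes of 4-HPAA over Normal Saline (horizontal axis) with standard errors for the 9 genes (left) and their 17 tested transcripts (right). Cebpa-201 (0.92) and Foxa2-201 (0.85) lie farthest from 0, and the bar of Onecut1 is the widest among the genes.

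Single transcripts of Cebpa and Foxa2 had larger fitted differences than the genes, and none passed. Of the 26 transcripts of the factors 17 were tested and 0 passed, as did 0 of 25977 transcripts overall (0%), with 19 passing in DESeq2, none a factor's. Before adjustment 2 of the 17 were under 0.05, as were 1000 of all transcripts (3.85%). None of the 17 had groups free of overlap, against 2.1% of all.

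Cebpa-201 measured 1698, 2839, 2306 and 2222 estimated counts with Normal Saline and 2101, 3957, 6040 and 4871 with 4-HPAA. HP2, HP3 and HP4 were above every control and HP1 was below 3 of them. The fitted log2 fold change was 0.92 ± 0.28 (SE, edgeR's quasi-likelihood test, adjusted p = 1.00). Cebpa-202 went the other way, from 3941, 4965, 4586 and 4817 counts to 4916, 2786, 2977 and 3174, with a log2 fold change of -0.37 ± 0.19 (SE, edgeR, adjusted p = 1.00), and -0.60 without HP1.

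As a share of the counts of Cebpa, Cebpa-201 held 30.1%, 36.4%, 33.5% and 31.6% with Normal Saline and 29.9%, 58.7%, 67.0% and 60.6% with 4-HPAA. The 4 controls and HP1 lay together and the other 3 mice far above them. The means were 32.9% ± 2.70 and 54.0% ± 16.5 (SD, n = 4 each), a difference of 21.2 percentage points (exact permutation test, two-sided, p = 0.143, adjusted over the 16 shares p = 0.571). With 70 splits of the mice the smallest p is 0.0286, so that no share could pass after adjustment unless most of the 16 reached that p.

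Both transcripts of Cebpa are annotated as coding. They differ mainly by 475 bases (chr7:35119772-35120246, GRCm38), an exonic, coding stretch of Cebpa-201 that the annotation splices out of Cebpa-202. Cebpa-202 also begins slightly upstream, at base 35119293 against 35119303. Whether Cebpa-202 is a true splice form was not tested. The stretch has a GC content of 76.8%, against 59.5% in the rest of Cebpa-201. Cebpa-202 has 40 and Cebpa-201 has 505 stretches of 31 bases of its own, so the split is read mainly from coverage of this stretch. In a measure chosen after these values were seen, the median log2 deviation of the 1289 most GC-rich genes minus that of other genes was -0.027, 0.053, -0.11 and 0.028 with Normal Saline and 0.017, -0.055, 0.040 and 0.034 with 4-HPAA. The part of GC content in the share of Cebpa-201 was not tested.

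**Figure D3:**
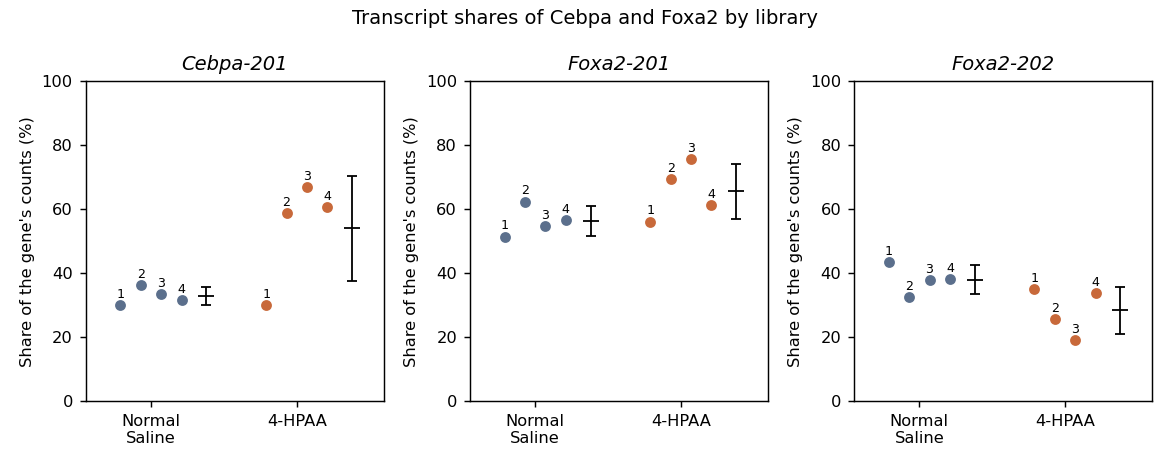
Share of the gene's estimated counts (percent, 0 to 100) held by Cebpa-201, Foxa2-201 and Foxa2-202 in each library, with replicate numbers and the group mean ± SD (n = 4). For Cebpa-201, HP2, HP3 and HP4 sit between 58.7% and 67.0% and all other libraries between 29.9% and 36.4%.

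The transcripts of Foxa2 had unequal differences, none of which passed. Foxa2-201, from the outermost start whose window is printed above, measured 199, 347, 199 and 269 counts with Normal Saline and 357, 250, 763 and 445 with 4-HPAA (log2 fold change 0.85 ± 0.33, SE, edgeR, adjusted p = 1.00), and 0.52 without HP3. Foxa2-202, from a start downstream of it, had a log2 fold change of 0.21 ± 0.29 (SE, edgeR, adjusted p = 1.00), which was 0.030 without HP4 and 0.44 without HP2. The noncoding Foxa2-203 had one of 0.74 ± 0.34 (SE, edgeR, adjusted p = 1.00). The share of Foxa2-201 was 56.3% ± 4.58 and 65.6% ± 8.64, and that of Foxa2-202 38.04% ± 4.46 and 28.4% ± 7.45 (SD, n = 4 each, exact permutation tests, two-sided, p = 0.143 and p = 0.0857, adjusted p = 0.571 for both). Foxa2-201 has 73 and Foxa2-202 has 50 stretches of 31 bases found in no other transcript, so this split rests on a small part of their sequence. None of the 16 shares had an unadjusted p under 0.05. The other tested transcripts gave log2 fold changes between -0.17 (Hnf4a-202) and 0.29 (Foxa1-201), with Foxa3-201 at -0.031, Cebpb-201 at 0.17, Hnf4a-201 at 0.14, Nr5a2-201 at -0.14, Nr5a2-202 at 0.20, Onecut1-201 at -0.15, Onecut1-202 at 0.053, Prox1-201 at 0.26, Prox1-202 at -0.12 and Prox1-203 at -0.050. Single libraries moved these small values too, with Foxa1-201 at 0.081 without HP3, and Nr5a2-201 at -0.034 and Prox1-202 at -0.011 without NS1.

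Whether the factors varied together from mouse to mouse was asked over the 36 pairs of the 9 genes, on log2 CPM. None passed after adjustment, 5 had an unadjusted p under 0.05, and 21 of the 36 were positive with a median r of 0.20. Foxa2 and Cebpa had the highest correlation (r = 0.84, exact permutation p = 0.00754, adjusted p = 0.144; rho = 0.88, exact permutation p = 0.00724, adjusted p = 0.130). Without the 2 libraries farthest from the median of Foxa2 it was 0.82. The 8 points share library depth and scaling. No share among pairs of other genes was taken, so these counts do not set the factors apart from other genes.

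Foxa1 and Onecut1 came next (r = 0.83, exact permutation p = 0.00801, adjusted p = 0.144; rho = 0.90, exact permutation p = 0.00456, adjusted p = 0.130). Onecut1 lay at 100 to 137 CPM in 3 libraries and at 38.6 CPM or below in the other 5, too few in either for a correlation within them. Over all libraries but the 2 farthest r was 0.75. Without NS3 the pair passed (r = 0.90, exact permutation adjusted p = 0.0286), the only leave-out in which any pair did. The other pairs with p under 0.05 were Cebpa and Nr5a2 (r = -0.80, exact permutation p = 0.0219, adjusted p = 0.201), Foxa1 and Foxa2 (r = 0.77, exact permutation p = 0.0223, adjusted p = 0.201) and Foxa1 and Cebpa (r = 0.71, exact permutation p = 0.0474, adjusted p = 0.341).

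**Figure D4:**
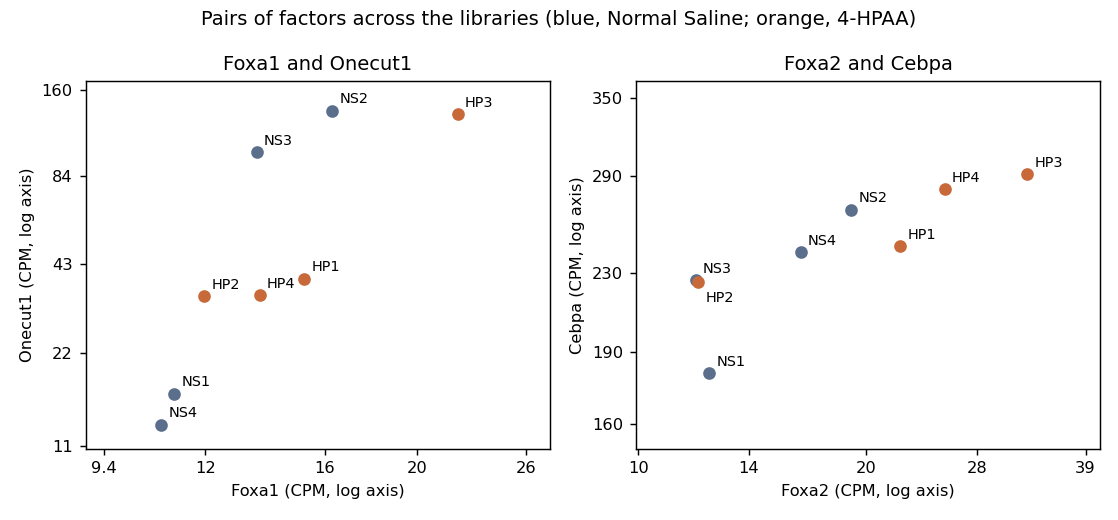
Normalized CPM (log axes) of Foxa1 against Onecut1 (left) and Foxa2 against Cebpa (right), one point per library. HP3 is highest for Foxa1, Foxa2 and Cebpa, while Onecut1 was about equal in NS2 (137 CPM) and HP3 (134 CPM).

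Genes with the pattern most like that of Hnf4a over the 8 libraries are given as a description. Hnrnpul2 (r = 0.99, 90.8 to 101.5 CPM) and Zfp119a (r = 0.96, 2.37 to 3.36 CPM) came first. Krt7 (r = 0.95, 0.447 to 0.994 CPM) was next, and 20 genes had r of at least 0.9. For Onecut1, a search added after its values were seen gave Olfr31 (r = 0.98, 0.756 to 2.36 CPM), Vmn2r89 (r = 0.96, 0.618 to 1.82 CPM) and Nelfcd (r = 0.95, 23.2 to 28.6 CPM). The last spanned far less than the 10.6-fold of Onecut1.

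Other liver factors were compared in the same fit. Of 28 other liver transcription factors, all were tested, 0 passed, 14 were higher and 14 lower, with a median log2 fold change of 0.0014. Among nuclear receptors, Rxra, the common dimer partner, had a log2 fold change (± SE) of -0.016 ± 0.081, Ppara, the fatty acid sensor, 0.14 ± 0.14, Nr1h4, the bile acid receptor FXR, -0.13 ± 0.091, and its target Nr0b2 (SHP), a repressor of NR5A2, -0.032 ± 0.37. The C/EBP relatives Cebpd and Cebpg had 0.14 ± 0.25 and 0.033 ± 0.085, and Onecut2 -0.051 ± 0.24.

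Nr2f6, an orphan receptor of the COUP family, was the highest of the 28. It measured 30.5, 35.4, 34.3 and 37.9 CPM in control mice, and in 4-HPAA mice 30.9, 48.2, 68.3 and 62.8 CPM. HP2, HP3 and HP4 were above every control and HP1 was not. The fit gave a log2 fold change of 0.61 ± 0.21 (SE, edgeR, adjusted p = 1.00). Tcf7l2, a Wnt pathway factor, was lowest at -0.18 ± 0.14 and at -0.054 without NS1. Of 11 coregulators, 0 passed and 0 had p under 0.05, from Hdac3, a histone deacetylase, at -0.11 ± 0.074 to Ppargc1b, a coactivator, at 0.31 ± 0.21 (SE), the last at 0.16 without NS3.

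**Figure D5:**
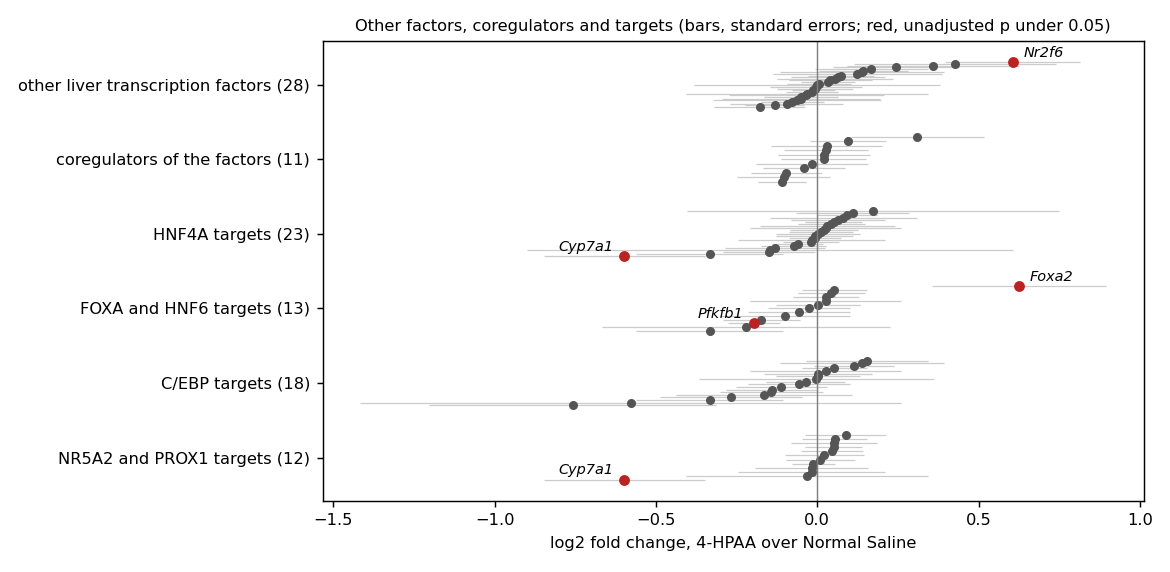
Log2 fold changes of 4-HPAA over Normal Saline (horizontal axis) with standard errors for the tested genes of 6 lists, the number tested in parentheses. The genes in red (Nr2f6, Cyp7a1, Foxa2 and Pfkfb1) had an unadjusted p under 0.05, and none passed after adjustment.

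Of 23 HNF4A targets 0 passed, 12 were higher and 11 lower, with a median log2 fold change of 0.00071. Apoa1, the main HDL apolipoprotein, had a log2 fold change of -0.017 ± 0.23, Apoa4, the highest of the list, 0.17 ± 0.58, and Cyp8b1, which sets the cholic acid share of bile acids, 0.051 ± 0.088 (SE). Cyp7a1, the rate-limiting enzyme of bile acid synthesis, was the lowest. It measured 296, 423, 279 and 277 CPM in NS mice and 202, 298, 225 and 118 CPM in 4-HPAA mice, so that 3 of 4 4-HPAA mice were below every control. Its log2 fold change was -0.60 ± 0.25 (SE, edgeR, adjusted p = 1.00).

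Of 13 FOXA and HNF6 targets 0 passed. Before adjustment 2 had p under 0.05 (edgeR, 1.75% of all genes), 1 of them Foxa2 itself. The other, Pfkfb1, a phosphofructo-2-kinase of liver glycolysis, was named after its values were seen. It measured 61.1, 51.7, 50.2 and 51.6 CPM in control mice, and in 4-HPAA mice 45.4, 46.8, 49.8 and 45.3 CPM. The groups did not overlap, as in 1.2% of all genes tested. The fit gave -0.20 ± 0.081 on the log2 scale (SE, edgeR, adjusted p = 1.00), and -0.13 without NS1. Alb had -0.056 ± 0.16, Ttr (transthyretin) 0.043 ± 0.10, Tat (tyrosine aminotransferase) 0.026 ± 0.23, Igfbp1 -0.22 ± 0.45, and the gluconeogenic Pck1 and G6pc 0.00071 ± 0.13 and -0.33 ± 0.23 (SE).

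Of 18 C/EBP targets 0 passed and 0 had p under 0.05, from Lcn2 (lipocalin 2, an acute phase protein) at -0.76 ± 0.44 to Gys2 (liver glycogen synthase) at 0.15 ± 0.19 (SE), the last at 0.0071 without HP4. Lcn2 rested on NS1, at 17.6 CPM against 3.67 to 6.98 elsewhere, and its log2 fold change was -0.030 without it. Of 13 NR5A2 and PROX1 targets 12 were tested, 0 passed, and 1, Cyp7a1 again, had p under 0.05 (edgeR, 1.75% of all genes). Scarb1 (the HDL receptor) had 0.047 ± 0.096, Abcg5 (a sterol transporter) 0.021 ± 0.12 and Apom, the highest, 0.088 ± 0.12 (SE).

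Markers of the cell types a liver sample can hold were tested too. In edgeR's test none passed in any of the 8 lists, and 0 had an unadjusted p under 0.05. The lists ran from Trf at -0.15 to Serpina1c at 0.083 for hepatocytes, Epcam at -0.15 to Sox9 at 0.43 for cholangiocytes, Stab1 at -0.069 to Cdh5 at 0.14 for endothelium, S100a9 at -0.25 to Lyz2 at 0.20 for leukocytes and Acta2 at -0.46 to Lrat at 0.34 for stellate cells. Single libraries carried several of these ends, with Sox9 at 0.060 without HP4, S100a9 at -0.027 without NS2 and Lyz2 at 0.017 without HP2. Cela1 at 0.19 and Cela2a at 0.34 were the 2 pancreas markers tested, Lgals4 at -0.13 and Fabp2 at 0.0011 the 2 intestine markers. Red blood cell markers ran from Hbb-bt at -2.11 to Alas2 at -0.081. The log2 fold change of Hbb-bt was -0.11 without NS2 and -3.55 without HP4.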

How the data were processed

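RNA-Seq libraries (strand-marking TruSeq mRNA kit, paired reads of 100 bp) were made from liver of 8 mice, 4 per group. The authors pseudo-aligned the reads with kallisto and deposited estimated counts per transcript, not normalized and not pooled. The submitters' processing notes also name FastQC 0.11.9, DESeq2, edgeR and build GRCm38.p6. Each column carried the name of 1 mouse, and 0 columns had none.

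Transcripts were assigned to genes with GENCODE M21 (GRCm38), and the rounded gene sums were tested with edgeR 4.0.16 in R 4.3.3 (TMM, quasi-likelihood F test, at least 10 counts in every library, Benjamini-Hochberg over all features, threshold 0.05, two-sided). Of the transcripts 116728 of 119414 were matched, and the rest held 0.703% to 1.06% of a library. The rest entered the transcript test only. At 29559978 to 30673398 counts a library, depth was not taken to limit precision except near 10 counts. How reads of sequence shared between transcripts or genes were assigned also limits it, and was not measured. CPM are scaled by TMM, and TPM use annotated lengths. Standard errors are the log2 fold change over the root of F.

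Transcripts averaging at least 10 counts entered the share tests (exact permutation over 70 splits), and pairs of genes were tested over all orders of the 8 libraries. Tried as alternatives were limma-voom (limma 3.58.1) and DESeq2 1.42.0, RLE, total counts, other filters, libraries left out, the replicate block, shares per length or over all transcripts, and deviations from group means. The main edgeR fits were tried on simulated data with known changes, and the motif search on short made-up sequences. Several listed genes and 1 motif are not reported here and were left out of the lists. Members and lists were chosen with earlier results of these data known. Named are the 9 factors, their transcripts averaging 10 counts, a fixed choice from the lists, and each list's highest and lowest tested gene.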

Additional observations from a re-analysis of the deposited data

Results flagged for a closer look

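Among 52 groups of 4 libraries examined for a value far from the other 3 (Dixon's 95% criterion), 4 were found, and chance gives about 1 in 20. All lay in the 4-HPAA group. Onecut1 was 134 CPM in HP3, against 33.9 to 38.6 CPM in the other 3 mice, a gap of 0.952 of the range. Its transcripts repeat this, with 124 CPM for Onecut1-201 against 30.2 to 35.5 CPM, and 9.999 CPM for Onecut1-202 against 2.99 to 4.12 CPM. These 3 values share their reads and count as 1 observation. In the Normal Saline group Onecut1 split into 2 low and 2 high libraries, which this criterion does not mark.

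Nr5a2 was 47.1 CPM in HP4, against 53.4 to 54.4 CPM in the other 3 mice. The gap is 0.870 of a narrow range, and NS2 lay at 48.9 CPM.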

How the results depend on the processing

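No factor, factor transcript or share passed in any alternative. For shares, the few splits of the mice left little room for any to pass after adjustment. DESeq2 passed 2 genes and 19 transcripts. Leaving out a library gave 0 to 1 genes, 0 to 1 transcripts and 0 to 1 pairs (1 gene and 1 transcript without HP1, 1 pair without NS3), and 0 shares. Onecut1 changed sign with limma-voom (0.26) and with the replicate block (0.31), as did Onecut1-201 (0.25 and 0.32), Nr0b2 with both (0.17 and 0.14), Apoa4 with limma-voom (-0.016), and Pck1 and Fabp2 with total counts (-0.00788 and -0.00977). The cause was not tested. Same-numbered libraries deviated together with r of 0.040, 0.17, 0.27 and 0.48 (mean 0.24). Those with other numbers had r of -0.48 to 0.47 (mean -0.078). Whether the replicate numbers mark a pairing was not tested. With the replicate block 0 genes passed and Foxa2 had a log2 fold change of 0.58 (edgeR, adjusted p = 1.00), its unadjusted p no longer under 0.05. Over the fits tried (edgeR, limma-voom and DESeq2) the unadjusted p of Foxa2 ran from 0.00162 to 0.148, and it passed in none.

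Leaving out each library in turn kept the sign of 6 factors and turned it in 3. Log2 fold changes then ran from -0.050 to 0.085 for Hnf4a, -0.15 to 0.070 for Foxa3, -0.90 to 0.49 for Onecut1, -0.14 to 0.076 for Foxa3-201, -0.0093 to 0.23 for Hnf4a-201, -0.93 to 0.50 for Onecut1-201, -0.50 to 0.52 for Onecut1-202, -0.17 to 0.50 for Prox1-201 and -0.46 to 0.31 for Prox1-203. Differences of shares ran from -0.00067 to 0.017 points for Hnf4a-205, -0.64 to 0.89 for Foxa2-203, -0.080 to 0.48 for Prox1-201, -0.57 to 0.20 for Prox1-202 and -0.12 to 0.13 for Prox1-203. Among listed genes they ran from -0.29 to 0.12 for Onecut2, -0.10 to 0.35 for Cebpd, -0.049 to 0.080 for Cebpg, -0.30 to 0.31 for Nr0b2, -0.052 to 0.013 for Rxra, -0.14 to 0.022 for Alb, -0.0028 to 0.076 for Ttr, -0.23 to 0.10 for Apoa1, -0.16 to 0.17 for Tat, -0.066 to 0.065 for Pck1, -0.62 to 0.34 for Igfbp1, -0.029 to 0.095 for Scarb1, -0.089 to 0.094 for Abcg5, -0.70 to 0.57 for Apoa4, -0.027 to 0.16 for Apom, -0.0011 to 0.13 for Serpina1c, -0.33 to 0.15 for Epcam, -0.12 to 0.15 for Fabp2, -0.17 to 0.034 for Stab1, -0.026 to 0.31 for Cdh5 and -0.30 to 0.12 for Alas2.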

Other observations

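Nr2f6 and the share of Cebpa-201 had the same libraries high, a likeness seen only after both were printed. For each, HP2, HP3 and HP4 were above all 4 controls and HP1 was not, with Nr2f6 at 48.2, 68.3 and 62.8 CPM against 30.9 CPM in HP1. Cebpb did not share it, since HP2 (61.0 CPM) lay among the controls. No test was made of this.

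Hamp, which encodes the iron hormone hepcidin and stands in the C/EBP list, was the most uneven target. It measured 670, 17.6, 155 and 553 CPM in NS mice and 93.4, 139, 381 and 321 CPM in 4-HPAA mice, with NS2, the library highest in red blood cell markers, the lowest. Hamp was named after its values were seen.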
